A study of Arabidopsis thaliana with 18 samples.

Results

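The genes described here code for proteins of the cytosolic ribosome in rosettes of Arabidopsis thaliana after 1 h of sound. They were chosen by locus from a list of 60 loci, 39 for proteins of the large subunit and 21 for the small subunit, and a locus was a member where the probe table gave a probe set to it alone. This held for 35 loci (22 large, 13 small) of the 22746 probe sets tested. Another 5 loci lay only on 4 probe sets that several loci share, and 20 loci had no probe set named here. No filter on low signals was used, so all 35 members were tested.

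Col-0 plants aged 20 days, wild type in every group and grown under continuous light, were held for 1 h in a chamber shielded from noise. The controls stood in silence, and the other groups received a single tone of 250, 500, 1000, 2000 or 3000 Hz at 80 dB. Rosettes were harvested at the end of the hour. RNA of 3 biological replicates a group was hybridised to Affymetrix ATH1 arrays, 18 in all, and each array carries 1 sample. How many plants made up a replicate is not given in the sources used here.

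Ribosomes translate messenger RNA. The small subunit binds the message and reads its codons, and the large subunit joins the amino acids and holds the tunnel through which the new protein leaves. In plants each ribosomal protein is coded by a small family of near-identical genes, and these genes are known for high transcript levels in growing and dividing tissue and for being regulated together. The protein families named below (L for large, S for small) follow the published nomenclature of the Arabidopsis ribosome as general knowledge, since the annotation used here names 1 member, PGY1 (AT2G27530). A probe set may also read the transcript of a sister gene, which was not tested.

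Values are log2 signals, so a difference of 1 is a doubling, and a signal is compared only with the same probe set on other arrays. The control arrays stood apart from each other, with a mean variance of 0.103 over all probe sets against 0.028 to 0.046 in the sound groups. The 24 probe sets for poly-A spikes, which are bacterial transcripts added to the RNA, split the arrays into 2 sets. In log2 signal they averaged 5.37 to 5.59 on each array of the controls, 250, 500 and 1000 Hz and 5.99 to 6.51 on each array of 2000 and 3000 Hz. The comparison of 3000 Hz with 2000 Hz therefore lies within 1 set. In whole rosettes, more cells of a type and more RNA per cell cannot be told apart.

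Transcripts of the ribosomal protein genes were highest at 3000 Hz. The mean at 3000 Hz was the highest of the 6 group means for 34 of 35 members, against 16.9% of all probe sets. For 25 members all 3 arrays at 3000 Hz lay above the 15 other arrays (2.37% of all probe sets did), and for 32 above the 12 other sound arrays (4.63%). The lowest mean fell at 500 Hz for 22 members, at 2000 Hz for 12 and at 1000 Hz for 1. Of all 22746 probe sets, it did so for 4570, 3791 and 1859 in the same order.

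Array by array, each member was set against its own mean over the 18 arrays and the 35 values were averaged. The averages were 0.33, -0.13 and -0.24 in the controls, 0.12, 0.03 and -0.20 at 250 Hz, and -0.17, -0.24 and -0.20 at 500 Hz. They were 0.02, -0.10 and -0.07 at 1000 Hz, -0.24, 0.03 and -0.30 at 2000 Hz, and 0.46, 0.50 and 0.41 at 3000 Hz. All 35 members lay above their own mean on each of the 3 arrays at 3000 Hz and on control replicate 1, and on no other array. Control replicate 1 was thus the array nearest to 3000 Hz, and it exceeded control replicates 2 and 3 for 35 of 35 members, against 34.2% of all probe sets. The 3 arrays at 500 Hz were all low and close together, whereas the arrays of 250 Hz and 2000 Hz were split.

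**Figure D1:**
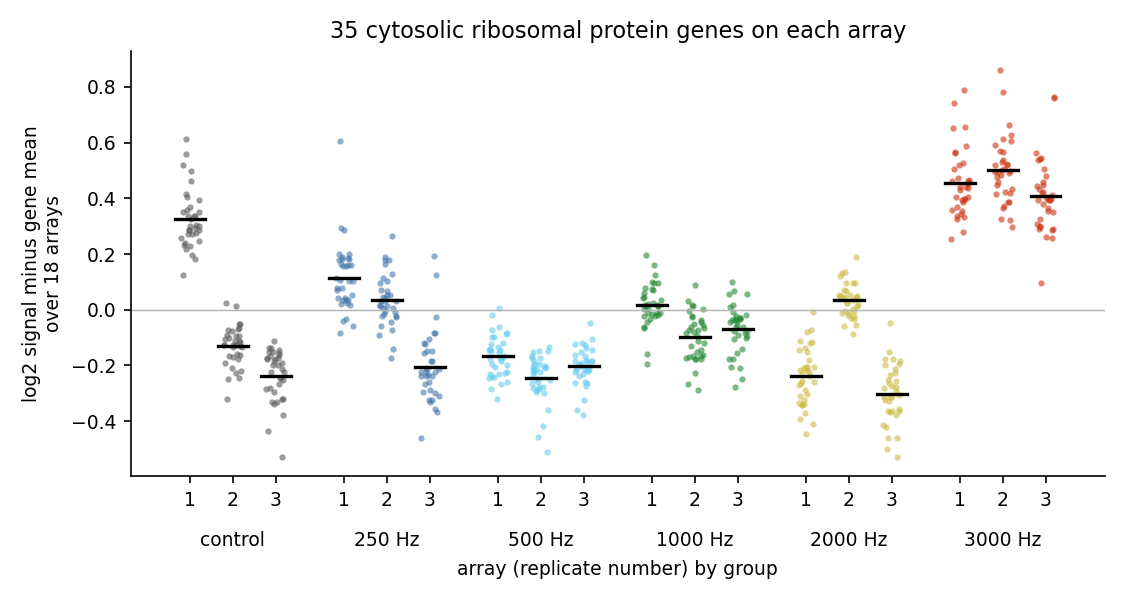
Log2 signal minus the gene's own mean over 18 arrays (vertical axis) on each array (horizontal axis, replicate number within group). Points are the 35 ribosomal protein genes and bars their mean, which is 0.46, 0.50 and 0.41 at 3000 Hz and 0.33 on control replicate 1.

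Among the large-subunit genes, L4 lines the tunnel of the ribosome. The L4 gene AT3G09630 had log2 signals of 12.03, 11.44 and 11.51 in the controls, 11.68, 11.57 and 11.33 at 250 Hz, and 11.43, 11.45 and 11.43 at 500 Hz. AT3G09630 had 11.65, 11.60 and 11.62 at 1000 Hz, 11.48, 11.73 and 11.51 at 2000 Hz, and 12.18, 12.18 and 12.08 at 3000 Hz. All arrays at 3000 Hz lay above the other 15, with control replicate 1 the nearest. Its paralog AT5G02870 had log2 signals of 12.34, 11.82 and 11.77 in the controls, 11.99, 11.96 and 11.71 at 250 Hz, and 11.75, 11.66 and 11.73 at 500 Hz. AT5G02870 had 12.07, 11.95 and 11.91 at 1000 Hz, 11.66, 12 and 11.64 at 2000 Hz, and 12.30, 12.44 and 12.34 at 3000 Hz. Here control replicate 1 lay among the arrays at 3000 Hz. AT3G09630 was 0.57 ± 0.13 higher at 3000 Hz than at 2000 Hz and AT5G02870 0.59 ± 0.13 higher (limma log2 difference ± SE, adjusted p = 0.0276 and 0.0284). Against the controls AT3G09630 rose by 0.49 (adjusted p = 0.0364), while the 0.38 of AT5G02870 did not pass (adjusted p = 0.095).

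The L6 gene AT1G18540 had log2 signals of 12.20, 11.68 and 11.53 in the controls, 11.89, 11.79 and 11.56 at 250 Hz, and 11.62, 11.62 and 11.67 at 500 Hz. AT1G18540 had 12.01, 11.94 and 11.82 at 1000 Hz, 11.51, 11.90 and 11.43 at 2000 Hz, and 12.29, 12.44 and 12.39 at 3000 Hz. It was high on every array at 3000 Hz and lowest on 2000 Hz replicates 1 and 3, a limma difference of 0.76 ± 0.15 between the groups (SE, adjusted p = 0.0185). The L7 family had 3 members. AT2G01250 had log2 signals of 12.43, 11.92 and 11.79 in the controls, 12.07, 12.14 and 11.82 at 250 Hz, and 12.01, 11.92 and 11.99 at 500 Hz. AT2G01250 had 12.19, 12 and 12.12 at 1000 Hz, 12.01, 12.18 and 11.95 at 2000 Hz, and 12.60, 12.62 and 12.55 at 3000 Hz. Its 3000 Hz arrays lay above all others. AT2G44120 had log2 signals of 11.97, 11.42 and 11.28 in the controls, 11.79, 11.68 and 11.39 at 250 Hz, and 11.46, 11.41 and 11.49 at 500 Hz. AT2G44120 had 11.59, 11.54 and 11.62 at 1000 Hz, 11.27, 11.60 and 11.15 at 2000 Hz, and 12.14, 12.15 and 12.06 at 3000 Hz. Those of AT2G44120 did so too, with a wider gap to 2000 Hz. The rise of AT2G44120 over 2000 Hz was 0.78 ± 0.15 and that of AT2G01250 0.54 ± 0.13 (limma, SE, adjusted p = 0.0185 and 0.036).

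The third L7 gene, AT3G13580, had log2 signals of 10.07, 9.80 and 9.61 in the controls, 10.39, 10.05 and 9.98 at 250 Hz, and 9.64, 9.37 and 9.57 at 500 Hz. AT3G13580 had 9.59, 9.61 and 9.63 at 1000 Hz, 9.34, 9.70 and 9.60 at 2000 Hz, and 10.11, 10.20 and 9.88 at 3000 Hz. AT3G13580 was the 1 member whose mean was highest at 250 Hz, and its arrays at 250 Hz and 3000 Hz overlapped. It differed by -0.08 ± 0.14 between 3000 Hz and 250 Hz and by 0.31 ± 0.14 between 250 Hz and the controls, and neither passed in limma (SE, adjusted p = 0.784 and 0.282). The 0.31 was the largest difference of any member at 250 Hz. Its difference of 0.24 ± 0.14 between 3000 Hz and the controls was the smallest of the 35 (adjusted p = 0.321). AT3G13580 differed among the 5 frequencies (limma moderated F test, adjusted p = 0.0135) and between 3000 Hz and 500 Hz (0.54 ± 0.14, adjusted p = 0.0217).

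L7a is an RNA-binding protein of the large subunit. The L7a gene AT2G47610 had log2 signals of 11.83, 11.41 and 11.38 in the controls, 11.64, 11.53 and 11.20 at 250 Hz, and 11.28, 11.36 and 11.32 at 500 Hz. AT2G47610 had 11.54, 11.50 and 11.49 at 1000 Hz, 11.27, 11.55 and 11.16 at 2000 Hz, and 11.92, 12.09 and 11.97 at 3000 Hz. Its paralog AT3G62870 had log2 signals of 13.05, 12.60 and 12.49 in the controls, 12.82, 12.64 and 12.56 at 250 Hz, and 12.64, 12.54 and 12.53 at 500 Hz. AT3G62870 had 12.75, 12.62 and 12.68 at 1000 Hz, 12.39, 12.71 and 12.39 at 2000 Hz, and 13.11, 13.22 and 13.11 at 3000 Hz. Both were above all other arrays at 3000 Hz, and in both the lowest arrays included 2000 Hz replicate 3. They were 0.67 ± 0.13 and 0.65 ± 0.12 higher at 3000 Hz than at 2000 Hz (limma, SE, adjusted p = 0.0185 and 0.0177).

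L9, the counterpart of L6 of bacteria, and L19, which touches the small subunit in a bridge between the subunits, had the largest differences over the controls and over 2000 Hz. The L9 gene AT4G10450 had log2 signals of 10.10, 9.39 and 9.11 in the controls, 9.82, 9.69 and 9.27 at 250 Hz, and 9.37, 9.34 and 9.45 at 500 Hz. AT4G10450 had 9.68, 9.41 and 9.56 at 1000 Hz, 9.42, 9.65 and 9.11 at 2000 Hz, and 10.29, 10.42 and 10.40 at 3000 Hz. The arrays at 3000 Hz lay above all others, followed by control replicate 1. The L19 gene AT3G16780 had log2 signals of 10.21, 9.33 and 9.32 in the controls, 9.61, 9.51 and 9.19 at 250 Hz, and 9.41, 9.14 and 9.29 at 500 Hz. AT3G16780 had 9.67, 9.50 and 9.51 at 1000 Hz, 9.44, 9.84 and 9.37 at 2000 Hz, and 10.44, 10.51 and 10.41 at 3000 Hz. The same 4 arrays stood above the rest here. AT4G10450 was 0.84 ± 0.20 higher at 3000 Hz than in the controls and AT3G16780 0.83 ± 0.20 higher, 1.79-fold and 1.78-fold (limma, SE, adjusted p = 0.028 and 0.0237). Over 2000 Hz they rose by 0.98 ± 0.20 and 0.90 ± 0.20 (adjusted p = 0.0206 and 0.0234). Over 500 Hz AT3G16780 rose by 1.17 ± 0.20 (2.25-fold, adjusted p = 0.00466), the largest difference of any member in any of the 9 comparisons.

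**Figure D2:**
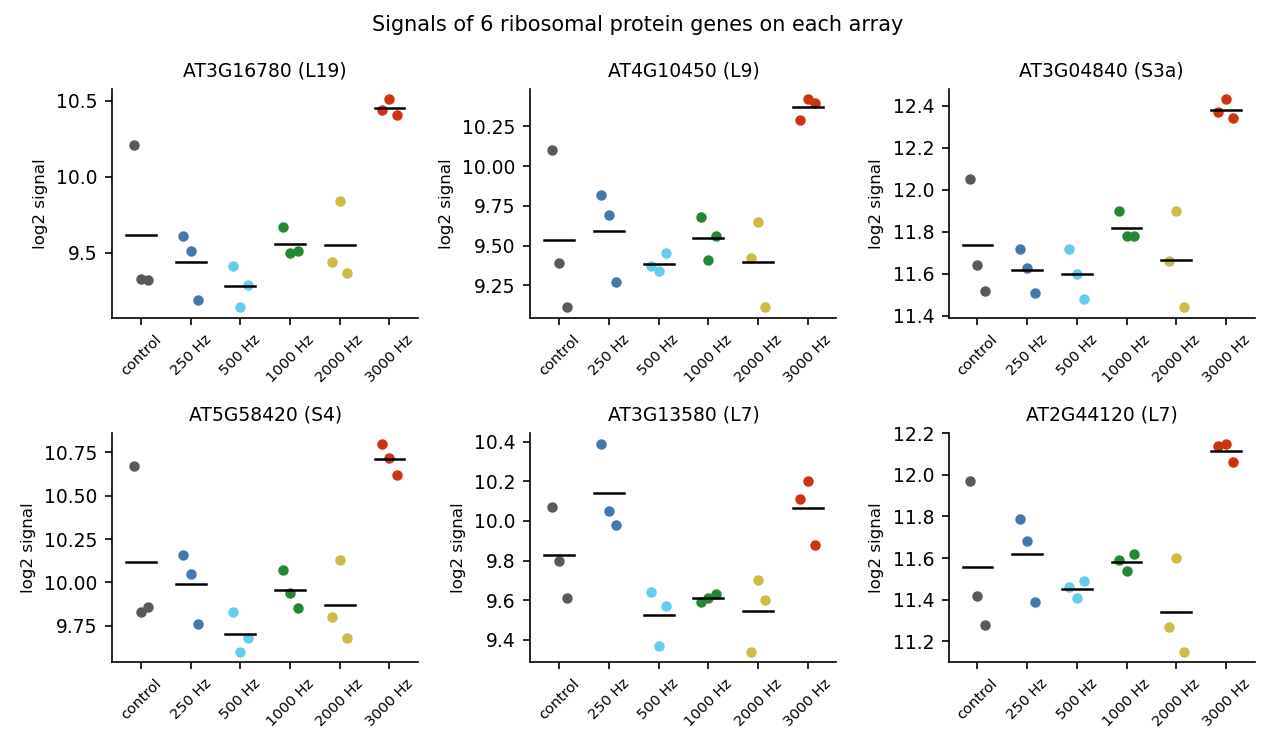
Log2 signal (vertical axis) of 6 ribosomal protein genes on each array by group (horizontal axis), with bars for group means. AT3G16780 and AT4G10450 had the largest differences between 3000 Hz and control, and AT3G13580 was the member with its highest mean at 250 Hz.

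L10a forms a mobile stalk of the large subunit beside the exit site of transfer RNA. The L10a gene AT1G08360 had log2 signals of 11.55, 11.20 and 11.04 in the controls, 11.48, 11.31 and 11.07 at 250 Hz, and 11.30, 11.07 and 11.03 at 500 Hz. AT1G08360 had 11.26, 11.12 and 11.23 at 1000 Hz, 11.18, 11.33 and 11.08 at 2000 Hz, and 11.66, 11.74 and 11.62 at 3000 Hz. The 3000 Hz arrays were above all others by a small margin. Its paralog PGY1 (AT2G27530) had log2 signals of 11.46, 11.15 and 11.01 in the controls, 11.35, 11.31 and 11.07 at 250 Hz, and 11.26, 11.13 and 11.07 at 500 Hz. AT2G27530 had 11.28, 11.24 and 11.20 at 1000 Hz, 11.05, 11.28 and 10.91 at 2000 Hz, and 11.74, 11.78 and 11.71 at 3000 Hz. PGY1 stood further above control replicate 1. PGY1 rose by 0.54 ± 0.12 over the controls (limma, SE, adjusted p = 0.0189) and by 0.66 ± 0.12 over 2000 Hz (adjusted p = 0.0163), whereas the 0.48 ± 0.13 of AT1G08360 over 2000 Hz did not pass (adjusted p = 0.0549). Whether the paralogs differ from each other was not tested.

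L12 sits at the base of the stalk that calls in elongation factors. The L12 gene AT2G37190 had log2 signals of 12.09, 11.46 and 11.37 in the controls, 11.78, 11.78 and 11.38 at 250 Hz, and 11.37, 11.33 and 11.37 at 500 Hz. AT2G37190 had 11.57, 11.51 and 11.53 at 1000 Hz, 11.22, 11.61 and 11.18 at 2000 Hz, and 12.05, 12.09 and 11.97 at 3000 Hz. Control replicate 1 was level with the 3000 Hz arrays. Its paralog AT3G53430 had log2 signals of 12.41, 11.83 and 11.76 in the controls, 12.04, 12.05 and 11.74 at 250 Hz, and 11.81, 11.80 and 11.82 at 500 Hz. AT3G53430 had 12.05, 11.84 and 11.95 at 1000 Hz, 11.80, 12 and 11.83 at 2000 Hz, and 12.47, 12.49 and 12.40 at 3000 Hz. Control replicate 1 again lay among the 3000 Hz arrays, and neither gene passed against the controls (0.40 ± 0.16 and 0.45 ± 0.14 in limma, SE, adjusted p = 0.146 and 0.0561). Over 2000 Hz they rose by 0.70 and 0.58 (adjusted p = 0.03 and 0.0325).

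The L13 gene AT5G23900 had log2 signals of 11.07, 10.82 and 10.63 in the controls, 10.82, 10.80 and 10.92 at 250 Hz, and 10.66, 10.50 and 10.61 at 500 Hz. AT5G23900 had 10.73, 10.65 and 10.62 at 1000 Hz, 10.68, 10.89 and 10.54 at 2000 Hz, and 11.05, 11.16 and 11.16 at 3000 Hz. It was flatter than most, with the second smallest difference against the controls (0.28 ± 0.11 in limma, SE, adjusted p = 0.123) and the second smallest over 2000 Hz (0.42 ± 0.11, adjusted p = 0.0464). The L13a gene AT3G07110 had log2 signals of 12.35, 11.82 and 11.72 in the controls, 12.09, 12.03 and 11.61 at 250 Hz, and 11.65, 11.65 and 11.66 at 500 Hz. AT3G07110 had 11.87, 11.77 and 11.83 at 1000 Hz, 11.71, 11.97 and 11.62 at 2000 Hz, and 12.52, 12.54 and 12.39 at 3000 Hz. AT3G07110 was low on all arrays at 500 Hz and rose by 0.83 ± 0.15 over them (limma, SE, adjusted p = 0.00512). The L15 gene AT4G16720 had log2 signals of 12.24, 11.86 and 11.78 in the controls, 11.92, 11.91 and 11.73 at 250 Hz, and 11.78, 11.73 and 11.81 at 500 Hz. AT4G16720 had 11.96, 11.88 and 11.85 at 1000 Hz, 11.80, 12.05 and 11.70 at 2000 Hz, and 12.39, 12.41 and 12.35 at 3000 Hz. The 3000 Hz arrays were above all others, and over 2000 Hz the rise was 0.53 ± 0.11 (limma, SE, adjusted p = 0.0201).

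L17 lines the tunnel together with L4. The L17 gene AT1G27400 had log2 signals of 11.69, 11.10 and 10.85 in the controls, 11.33, 11.24 and 11.02 at 250 Hz, and 11.07, 10.81 and 10.98 at 500 Hz. AT1G27400 had 11.24, 11.20 and 11.15 at 1000 Hz, 10.76, 11.11 and 10.67 at 2000 Hz, and 11.62, 11.69 and 11.52 at 3000 Hz. Control replicate 1 stood level with 3000 Hz, and 2000 Hz replicates 1 and 3 were the lowest arrays. The difference of -0.37 ± 0.17 between 2000 Hz and the controls was the largest fall of the members there and did not pass (limma, SE, adjusted p = 0.238). Its paralog AT1G67430 had log2 signals of 12.63, 12.27 and 12.22 in the controls, 12.52, 12.39 and 12.21 at 250 Hz, and 12.21, 12.11 and 12.14 at 500 Hz. AT1G67430 had 12.34, 12.28 and 12.33 at 1000 Hz, 12.05, 12.33 and 12.08 at 2000 Hz, and 12.69, 12.89 and 12.77 at 3000 Hz. AT1G67430 passed against the controls (0.41 ± 0.11 in limma, SE, adjusted p = 0.0384), while AT1G27400 had 0.40 ± 0.17 and did not (adjusted p = 0.162). The differences were nearly equal, and the standard error was larger for AT1G27400.

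The L18a gene AT2G34480 had log2 signals of 12.67, 12.38 and 12.28 in the controls, 12.51, 12.41 and 12.35 at 250 Hz, and 12.29, 12.26 and 12.27 at 500 Hz. AT2G34480 had 12.42, 12.38 and 12.45 at 1000 Hz, 12.16, 12.41 and 12.17 at 2000 Hz, and 12.82, 12.82 and 12.72 at 3000 Hz. Its 3000 Hz arrays were above all others by a small step, 0.34 ± 0.09 over the controls (limma, SE, adjusted p = 0.0406). The L26 gene AT3G49910 had log2 signals of 12.85, 12.45 and 12.40 in the controls, 12.74, 12.60 and 12.45 at 250 Hz, and 12.46, 12.34 and 12.32 at 500 Hz. AT3G49910 had 12.57, 12.57 and 12.52 at 1000 Hz, 12.22, 12.50 and 12.23 at 2000 Hz, and 12.90, 12.93 and 12.96 at 3000 Hz. The 3000 Hz arrays stayed above control replicate 1, yet the difference of 0.36 ± 0.11 from the controls did not pass (limma, SE, adjusted p = 0.06). The L28 gene AT2G19730 had log2 signals of 12.59, 12.32 and 12.09 in the controls, 12.45, 12.35 and 12.16 at 250 Hz, and 12.31, 12.22 and 12.16 at 500 Hz. AT2G19730 had 12.39, 12.26 and 12.44 at 1000 Hz, 12.07, 12.41 and 11.91 at 2000 Hz, and 12.77, 12.94 and 12.85 at 3000 Hz. AT2G19730 rose by 0.72 ± 0.13 over 2000 Hz (limma, SE, adjusted p = 0.0163), with 2000 Hz replicate 3 the lowest array.

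Among the small-subunit genes, S2 and S9 lie where the message enters the ribosome. The S2 gene AT2G41840 had log2 signals of 12.10, 11.67 and 11.69 in the controls, 12, 11.98 and 11.54 at 250 Hz, and 11.48, 11.55 and 11.54 at 500 Hz. AT2G41840 had 11.88, 11.63 and 11.71 at 1000 Hz, 11.72, 11.85 and 11.51 at 2000 Hz, and 12.23, 12.22 and 12.11 at 3000 Hz. The arrays at 500 Hz were among the lowest, and over them it rose by 0.66 ± 0.13 at 3000 Hz (limma, SE, adjusted p = 0.00759). The S9 gene AT5G15200 had log2 signals of 12.94, 12.74 and 12.63 in the controls, 12.97, 12.80 and 12.63 at 250 Hz, and 12.61, 12.68 and 12.65 at 500 Hz. AT5G15200 had 12.89, 12.76 and 12.87 at 1000 Hz, 12.61, 12.86 and 12.62 at 2000 Hz, and 13.15, 13.14 and 13.11 at 3000 Hz. AT5G15200 had the smallest control spread of the members (SD 0.16, n = 3), and it rose by 0.36 ± 0.10 over the controls (limma, SE, adjusted p = 0.037).

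S3a lies near the exit of the message. The S3a gene AT3G04840 had log2 signals of 12.05, 11.64 and 11.52 in the controls, 11.72, 11.63 and 11.51 at 250 Hz, and 11.72, 11.60 and 11.48 at 500 Hz. AT3G04840 had 11.90, 11.78 and 11.78 at 1000 Hz, 11.66, 11.90 and 11.44 at 2000 Hz, and 12.37, 12.43 and 12.34 at 3000 Hz. AT3G04840 had the smallest adjusted p of the members against the controls (0.64 ± 0.13 in limma, SE, adjusted p = 0.0146), against 250 Hz (0.76 ± 0.13, adjusted p = 0.00394) and in the F test over the 5 frequencies (adjusted p = 0.00706). Its paralog AT4G34670 had log2 signals of 12.01, 11.58 and 11.52 in the controls, 11.95, 11.76 and 11.54 at 250 Hz, and 11.40, 11.40 and 11.54 at 500 Hz. AT4G34670 had 11.67, 11.48 and 11.38 at 1000 Hz, 11.42, 11.64 and 11.43 at 2000 Hz, and 12.12, 12.08 and 11.92 at 3000 Hz. Control replicate 1 and 250 Hz replicate 1 overlapped the 3000 Hz arrays of AT4G34670, and its 0.34 ± 0.13 over the controls did not pass (limma, SE, adjusted p = 0.132).

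The S4 family had 3 members. AT2G17360 had log2 signals of 10.63, 10.13 and 10.00 in the controls, 10.46, 10.41 and 10.11 at 250 Hz, and 10.13, 10.08 and 10.17 at 500 Hz. AT2G17360 had 10.49, 10.13 and 10.20 at 1000 Hz, 10.09, 10.34 and 9.93 at 2000 Hz, and 10.70, 10.73 and 10.58 at 3000 Hz. It was the 1 member that did not pass the F test over the 5 frequencies (limma, adjusted p = 0.073). AT5G07090 had log2 signals of 11.21, 10.76 and 10.45 in the controls, 10.92, 11.05 and 10.65 at 250 Hz, and 10.70, 10.61 and 10.78 at 500 Hz. AT5G07090 had 10.98, 10.62 and 10.68 at 1000 Hz, 10.75, 10.91 and 10.53 at 2000 Hz, and 11.54, 11.41 and 11.39 at 3000 Hz. It stood above all other arrays at 3000 Hz and rose by 0.64 ± 0.16 over the controls (limma, SE, adjusted p = 0.033). AT5G58420 had log2 signals of 10.67, 9.83 and 9.86 in the controls, 10.16, 10.05 and 9.76 at 250 Hz, and 9.83, 9.60 and 9.68 at 500 Hz. AT5G58420 had 10.07, 9.94 and 9.85 at 1000 Hz, 9.80, 10.13 and 9.68 at 2000 Hz, and 10.80, 10.72 and 10.62 at 3000 Hz. Control replicate 1 lay among its 3000 Hz arrays, the difference of 0.59 ± 0.18 from the controls did not pass (limma, SE, adjusted p = 0.0641), and over 500 Hz it rose by 1.01 ± 0.18 (adjusted p = 0.00549). The 500 Hz difference of AT5G58420 from the controls, -0.42 ± 0.18, was the lowest of the members and did not pass (adjusted p = 0.162).

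The S7 gene AT1G48830 had log2 signals of 11.39, 11 and 10.96 in the controls, 11.26, 11.19 and 10.92 at 250 Hz, and 11.07, 11.01 and 11.11 at 500 Hz. AT1G48830 had 11, 10.87 and 10.98 at 1000 Hz, 11.15, 11.28 and 11.11 at 2000 Hz, and 11.60, 11.48 and 11.46 at 3000 Hz. Its lowest mean was at 1000 Hz and not at 500 or 2000 Hz, and it had the smallest difference over 2000 Hz (0.33 ± 0.11 in limma, SE, adjusted p = 0.127). Its paralog AT3G02560 had log2 signals of 11.65, 11.30 and 11.12 in the controls, 11.38, 11.34 and 11.34 at 250 Hz, and 11.22, 11.17 and 11.10 at 500 Hz. AT3G02560 had 11.35, 11.32 and 11.32 at 1000 Hz, 11.10, 11.41 and 11.05 at 2000 Hz, and 11.77, 11.86 and 11.76 at 3000 Hz. AT3G02560 rose by 0.61 ± 0.11 over 2000 Hz (limma, SE, adjusted p = 0.0167). Both S7 genes passed against the controls, with 0.40 and 0.44 (adjusted p = 0.0454 and 0.0354).

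The S8 gene AT5G20290 had log2 signals of 13.44, 13.11 and 13.05 in the controls, 13.41, 13.34 and 13.13 at 250 Hz, and 13.09, 12.93 and 13.06 at 500 Hz. AT5G20290 had 13.31, 13.23 and 13.31 at 1000 Hz, 12.82, 13.18 and 12.90 at 2000 Hz, and 13.49, 13.51 and 13.50 at 3000 Hz. The 3000 Hz arrays were nearly equal and close above control replicate 1 and 250 Hz replicate 1, and the difference from the controls did not pass (0.30 ± 0.11 in limma, SE, adjusted p = 0.104). The S10 gene AT4G25740 had log2 signals of 10.79, 10.39 and 10.14 in the controls, 10.57, 10.57 and 10.28 at 250 Hz, and 10.34, 10.24 and 10.30 at 500 Hz. AT4G25740 had 10.54, 10.34 and 10.27 at 1000 Hz, 10.30, 10.65 and 10.32 at 2000 Hz, and 11.08, 11.13 and 11.06 at 3000 Hz. AT4G25740 rose by 0.65 ± 0.14 over the controls, the largest of the small subunit (limma, SE, adjusted p = 0.0192).

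The S13 gene AT3G60770 had log2 signals of 12.21, 11.63 and 11.70 in the controls, 11.91, 11.87 and 11.52 at 250 Hz, and 11.70, 11.68 and 11.68 at 500 Hz. AT3G60770 had 11.83, 11.81 and 11.79 at 1000 Hz, 11.80, 12.01 and 11.64 at 2000 Hz, and 12.38, 12.35 and 12.23 at 3000 Hz. Its difference of 0.47 ± 0.14 from the controls lay just outside the threshold (limma, SE, adjusted p = 0.0501). S14 sits on the platform of the small subunit. The S14 gene AT2G36160 had log2 signals of 11.83, 11.50 and 11.44 in the controls, 11.92, 11.81 and 11.51 at 250 Hz, and 11.39, 11.45 and 11.43 at 500 Hz. AT2G36160 had 11.62, 11.63 and 11.69 at 1000 Hz, 11.29, 11.62 and 11.36 at 2000 Hz, and 11.99, 12.02 and 11.89 at 3000 Hz. Here 250 Hz replicate 1 was the nearest array and overlapped 3000 Hz, and AT2G36160 rose by 0.54 ± 0.12 over 2000 Hz (limma, SE, adjusted p = 0.023).

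Between 3000 Hz and 2000 Hz, 29 of 35 members were higher at 3000 Hz in limma (adjusted p under 0.05), against 2.34% of all probe sets called higher. They were 20 of 22 large-subunit and 9 of 13 small-subunit genes, and 0 fell. The median difference of the members was 0.61 (1.53-fold), with a range of 0.33 to 0.98, and over all probe sets the median was -0.0033. All 3 arrays at 3000 Hz lay above all 3 at 2000 Hz for 35 of 35 members, as for 13.4% of all probe sets. The count was 0, 34 and 0 without 2000 Hz replicates 1, 2 and 3 and 1, 0 and 0 without 3000 Hz replicates 1, 2 and 3, although 35 members had an unadjusted p under 0.05 each time. An ordinary test with no shared variance gave 18. The actin 3' minus 5' log2 signal, a sign of RNA quality, was 1.61 ± 0.055 at 3000 Hz and 1.75 ± 0.086 at 2000 Hz (SD, n = 3 each), with ranges of 1.56 to 1.67 and 1.67 to 1.84. For an older actin pair of probe sets it was 3.42 ± 0.015 at 3000 Hz and 3.34 ± 0.13 at 2000 Hz. The part of RNA quality in the result was not tested.

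Against 500 Hz, 35 of 35 members were higher at 3000 Hz (7.36% of all probe sets called higher), with a median of 0.63 (1.55-fold) and a range of 0.45 to 1.17. The arrays did not overlap for any member (17.6% of all probe sets had 3000 Hz above 500 Hz throughout). Against 250 Hz, 23 members were higher (4.25%), with a median of 0.47, 34 positive differences and 32 members without overlap (17.6%). The count against 250 Hz was 9, 4 and 9 without 3000 Hz replicates 1, 2 and 3 and 15, 12 and 4 without 250 Hz replicates 1, 2 and 3. Against 1000 Hz, 13 members were higher (1.13%), the median was 0.49, all 35 were positive and none overlapped (13.8%). That count was 0 in limma without any of the 6 arrays, where 32 to 34 members had an unadjusted p under 0.05, and 1 in the ordinary test. Of all 22746 probe sets, 11842 had a positive difference against 250 Hz and 9955 against 1000 Hz. Over 250, 500 and 1000 Hz the spike mean at 3000 Hz was also higher (6.18 ± 0.18 at 3000 Hz, against 5.42 ± 0.047, 5.53 ± 0.043 and 5.53 ± 0.058, SD, n = 3 each), so sound and array set cannot be told apart there.

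Between 3000 Hz and the controls, 20 of 35 members were higher in limma, against 2.84% of all probe sets called higher. They were 14 of 22 large-subunit and 6 of 13 small-subunit genes, 0 fell, and 35 differences were positive. The median was 0.43 (1.35-fold) with a range of 0.24 to 0.84, and over all probe sets it was 0. All 3 arrays at 3000 Hz lay above all controls for 26 members (10.1% of all probe sets). They lay above control replicates 2 and 3 for 35 (18.4%), with a median difference from these 2 arrays of 0.61, and the mean at 3000 Hz exceeded control replicate 1 for 32 members by a median over the 35 of 0.12. The poly-A spike mean was 6.18 ± 0.18 at 3000 Hz and 5.46 ± 0.042 in the controls (SD, n = 3 each), so array set and sound cannot be told apart. The actin 3' minus 5' log2 signal averaged 1.94 ± 0.017 in the controls, 1.96 ± 0.15 at 250 Hz, 2.06 ± 0.29 at 500 Hz and 2.01 ± 0.059 at 1000 Hz, so its mean was lower at 3000 Hz than in any other group. The older actin pair gave 3.42 ± 0.015 at 3000 Hz and 3.50 ± 0.23 in the controls, and the part of RNA quality was not tested here either.

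The count of 20 depended on the control arrays. Without control replicates 1, 2 and 3 it was 34, 8 and 0, and without 3000 Hz replicates 1, 2 and 3 it was 0, 0 and 2, of 35. Over all probe sets, calls in either direction were 9.92%, 12.2% and 0.633% without control replicates 1, 2 and 3, and 6.6% with all arrays. The calls thus moved beyond the members as well. With the 6 arrays alone limma called 0 members (30 at an unadjusted p under 0.05), and the ordinary test called 9. The mean variance of the members was 0.099 in the controls and 0.0050 at 3000 Hz, so the shared variance of the fit understates the spread of the controls.

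**Figure D3:**
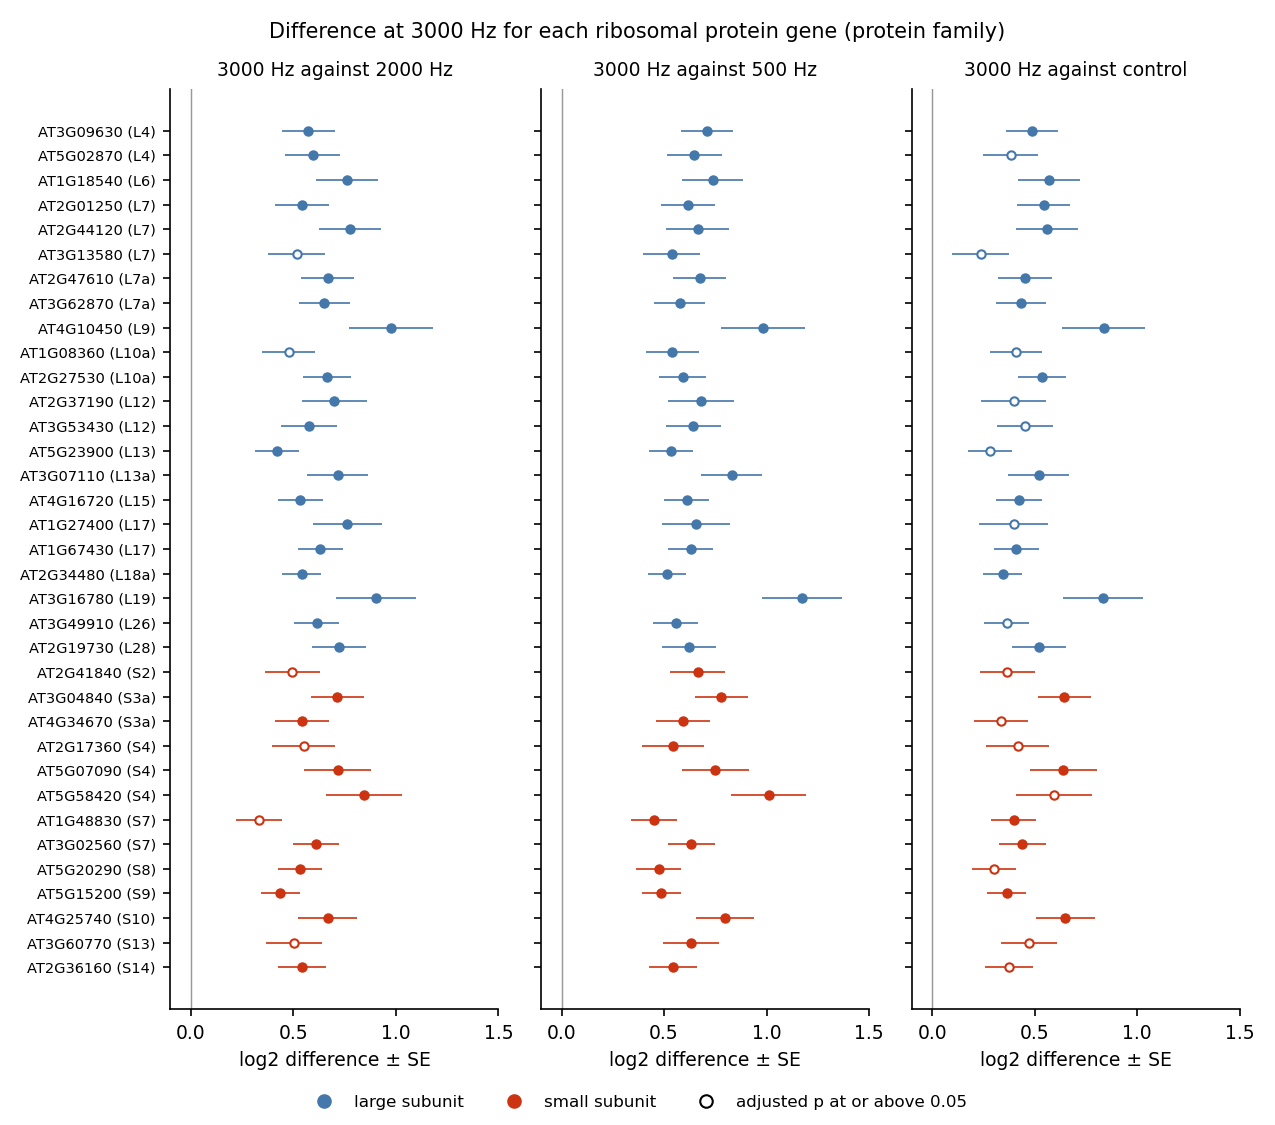
Limma log2 difference ± SE (horizontal axis) of each ribosomal protein gene (rows, protein family in brackets) between 3000 Hz and 2000 Hz, 500 Hz and control. Filled points passed (29, 35 and 20 of 35), and all differences are above 0.

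The other frequencies gave no called member against the controls. At 250 Hz, limma called 0 of 35 (0.044% of all probe sets in either direction), a median of 0.00 and 1 member at an unadjusted p under 0.05. At 500 Hz it called 0 (8.91%), with 4 unadjusted, 35 of 35 differences negative and a median of -0.17. At 1000 Hz it called 0 (0%), with 0 unadjusted and a median of -0.03. At 2000 Hz it called 0 (2.89%), with 3 unadjusted, 33 negative, 1 at 0.00 (AT2G01250) and a median of -0.17. Of all 22746 probe sets, 3601, 6047, 3516 and 4488 had an unadjusted p under 0.05 at 250, 500, 1000 and 2000 Hz. Differences were negative for 11551 probe sets at 500 Hz and for 12104 at 2000 Hz. The ordinary test and the 2 groups alone also gave 0 in each of these 4 comparisons, with 1, 1, 0 and 2 members at an unadjusted p under 0.05 in the ordinary test at 250, 500, 1000 and 2000 Hz. These medians depended on single control arrays. Without control replicate 1 they were 0.145 at 250 Hz, -0.04 at 500 Hz, 0.145 at 1000 Hz and 0.00 at 2000 Hz, so that the 1000 Hz median turned positive. Without control replicate 3 they were -0.12, -0.30, -0.14 and -0.28 in the same order. All 5 comparisons with the controls share the same 3 control arrays.

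Among the 5 frequencies, 34 of 35 members differed in limma's moderated F test (15.6% of all probe sets). Adjusted p-values ran from 0.00706 for AT3G04840 to 0.0730 for AT2G17360, with a median of 0.018. The count was 16, 13 and 20 without 3000 Hz replicates 1, 2 and 3, and 29 to 34 without any other sound array.

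Large-subunit and small-subunit genes moved together on each array. The mean of the 22 large-subunit genes minus that of the 13 small-subunit genes, both centred per gene, was 0.017 ± 0.030 in the controls, -0.014 ± 0.017 at 250 Hz and 0.0013 ± 0.022 at 500 Hz (log2, SD, n = 3). It was 0.016 ± 0.038 at 1000 Hz, -0.047 ± 0.017 at 2000 Hz and 0.028 ± 0.048 at 3000 Hz. At 2000 Hz all 3 arrays were below 0, from -0.064 to -0.031, and at 250 Hz too, from -0.033 to -0.0031, while in the other groups the sign differed between arrays. Between 3000 Hz and 2000 Hz the large-subunit genes averaged a difference of 0.65 ± 0.13 and the small-subunit genes 0.58 ± 0.13 (SD over 22 and 13 genes). Between 3000 Hz and the controls the averages were 0.47 ± 0.15 and 0.46 ± 0.13. Whether the subunits differ was not tested.

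**Figure D4:**
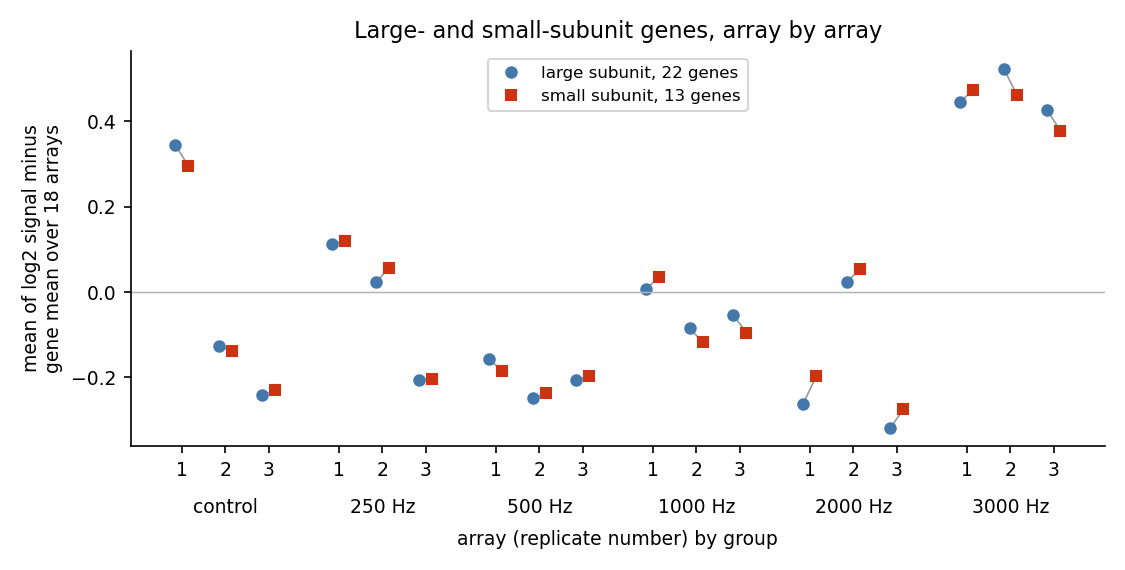
Mean log2 signal, centred per gene over 18 arrays (vertical axis), of 22 large-subunit genes (circles) and 13 small-subunit genes (squares) on each array (horizontal axis). Large minus small runs from -0.064 to 0.061 over the arrays, while the large-subunit means run from -0.32 to 0.52.

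Within the 9 families that had at least 2 members, 20 genes in all, the widest spread between paralogs in a comparison was in the L7 family. Its 3 differences between 3000 Hz and 250 Hz ran from -0.08 for AT3G13580 to 0.58 for AT2G01250. The S3a pair spanned 0.29 to 0.76 in the same comparison and the S4 family 0.34 to 0.72, while the L17 pair had 0.41 and 0.41. These ranges are given without a test.

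Genes for building ribosomes stood beside the ribosomal protein genes. Of 32 listed for ribosome biogenesis, 10 were measured, that is, had a probe set of their own in the annotation. Limma called 1 higher at 3000 Hz than in the controls, against 2.84% of all probe sets. It called 8 higher than at 2000 Hz (2.34%) and 10 higher than at 500 Hz (7.36%). Against 250 Hz it called 4 higher (4.25%) and against 1000 Hz 2 (1.13%), with 0 lower in any of these. The median differences were 0.51 over the controls and 0.86 over 2000 Hz. AT1G52930 had log2 signals of 9.20, 8.27 and 8.06 in the controls, 8.95, 8.71 and 8.38 at 250 Hz, and 8.36, 8.35 and 8.58 at 500 Hz. AT1G52930 had 8.65, 8.39 and 8.76 at 1000 Hz, 8.31, 8.83 and 8.12 at 2000 Hz, and 9.57, 9.59 and 9.70 at 3000 Hz. AT1G52930 was above all other arrays at 3000 Hz and rose by 1.11 ± 0.24 over the controls (limma, SE, adjusted p = 0.0192). No other measured biogenesis gene had all 3 arrays at 3000 Hz above all others. In most of the 10 measured genes control replicate 1 lay above all 3 arrays at 3000 Hz. NRPA1, the largest subunit of the RNA polymerase that makes ribosomal RNA, had log2 signals of 6.73, 5.75 and 5.74 in the controls, 5.82, 5.92 and 5.68 at 250 Hz, and 5.60, 5.62 and 5.43 at 500 Hz. NRPA1 had 6.02, 5.81 and 5.63 at 1000 Hz, 5.61, 5.91 and 5.54 at 2000 Hz, and 6.49, 6.68 and 6.5 at 3000 Hz. NRPA1 rose by 0.87 ± 0.20 over 2000 Hz (limma, SE, adjusted p = 0.0314) and had 0.48 ± 0.20 over the controls (adjusted p = 0.16), with control replicate 1 above the arrays at 3000 Hz. At 500 Hz, AT5G41190, the nuclease gene NOB1, fell by 0.70 on the log2 scale against the controls (limma, SE 0.20, adjusted p = 0.0437), with signals of 8.05, 7.69 and 7.55 at 500 Hz, against 9.12, 8.06 and 8.20 in the controls. All 3 arrays at 500 Hz were below the controls, as for 11.7% of all probe sets, but 8.05 lay only just below control replicate 2 at 8.06. Control replicate 1, at 9.12, stood apart from the other 2 controls. In this comparison 0 other biogenesis genes passed, and 4.77% of all probe sets were called lower.

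Plastid ribosomes are built separately, from plastid-coded and nuclear-coded proteins. Of 32 nuclear genes listed for them 8 were measured, and limma called 0 in each of the 9 comparisons and in the F test. Over all probe sets it called 0% to 11.9% in these comparisons and 15.6% in the F test, so 0 of 8 is near that share. The medians of the 8 genes were -0.02 between 3000 Hz and the controls and -0.08 between 3000 Hz and 2000 Hz. By value, the highest at 3000 Hz against the controls were AT3G54210 (0.03) and AT4G17560 (0.03), and the lowest AT5G65220 (-0.08) and AT3G13120 (-0.04). Of 43 listed cytosolic translation factors 4 were measured. At 3000 Hz limma called 0 higher than in the controls (2.84% of all probe sets) and 0 higher than at 1000 Hz (1.13%). It called 1 higher than at 2000 Hz (2.34%), AT5G19510 (0.50 ± 0.09, adjusted p = 0.0163), and 2 higher than at 250 Hz (4.25%). Over 500 Hz it called 3 (7.36%), the highest AT4G20980 (0.79 ± 0.17, adjusted p = 0.0105). The TOR kinase pathway, which governs growth and the making of ribosomes, had 1 of 5 genes measured, RAPTOR1, with -0.30 ± 0.12 between 3000 Hz and the controls (limma, SE, adjusted p = 0.133).

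**Figure D5:**
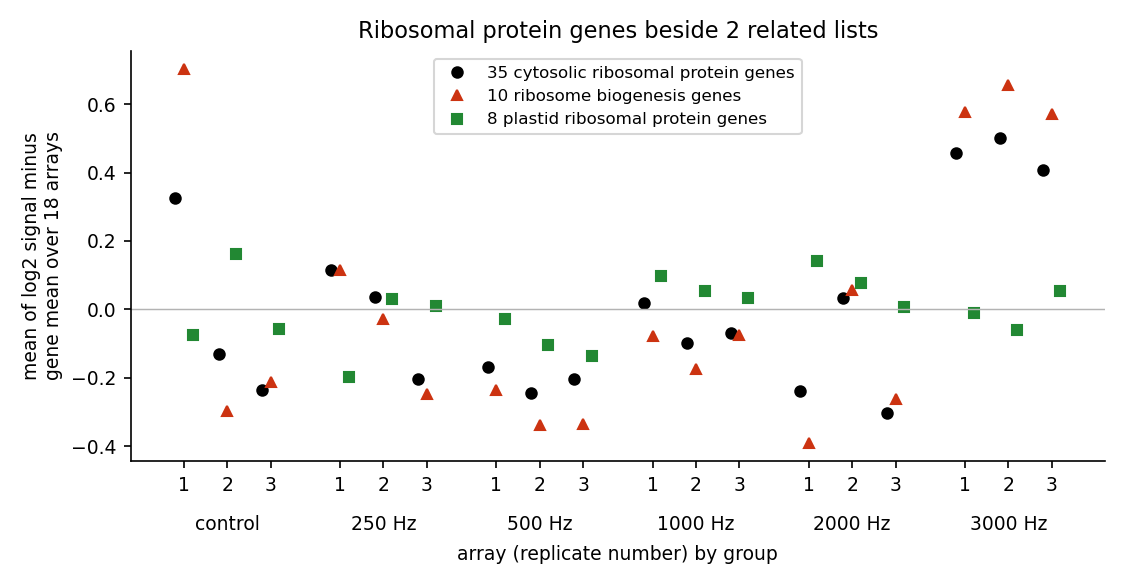
Mean log2 signal, centred per gene over 18 arrays (vertical axis), of the 35 ribosomal protein genes, 10 ribosome biogenesis genes and 8 nuclear genes of plastid ribosomal proteins on each array (horizontal axis). Both cytosolic lists are high at 3000 Hz (0.41 to 0.66) and on control replicate 1 (0.33 and 0.70), and the plastid list lies between -0.20 and 0.16.

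Few markers of other tissue had a probe set of their own in the annotation used here. It names no gene for 8730 of the 22746 probe sets, so a marker not measured here may still be on the array. Of 24 root markers 3 were measured, with a summed linear signal of 198 to 207.8 at 3000 Hz, 87.29 to 115.4 at 2000 Hz and 114.3 to 472.3 in the controls. The root hair expansin genes EXPA7 and EXPA18 stayed between 4.61 and 5.46 in log2 signal on all 18 arrays, so the sums differed through PYK10 (AT3G09260), an abundant root glucosidase gene. PYK10 had log2 signals of 8.67, 5.38 and 5.82 in the controls, 6.64, 7.94 and 5.64 at 250 Hz, and 4.32, 6.02 and 5.63 at 500 Hz. PYK10 had 5.65, 5.98 and 7.15 at 1000 Hz, 4.14, 5.41 and 4.94 at 2000 Hz, and 7.11, 7.11 and 6.98 at 3000 Hz. PYK10 was high on control replicate 1 and on the 3000 Hz arrays, as the ribosomal protein genes were, but also on 250 Hz replicate 2 and 1000 Hz replicate 3, where the member averages were 0.03 and -0.07. On the second of these arrays it stood at 7.15, above all 3 arrays at 3000 Hz. Its difference of 2.24 ± 0.74 between 3000 Hz and 2000 Hz did not pass (limma, SE, adjusted p = 0.119), and its part in the result was not tested. Of 17 markers of dividing cells and the shoot apex 2 were measured, with sums of 389.4 to 493.8 at 3000 Hz, 264.9 to 325.9 at 2000 Hz and 293.7 to 416.4 in the controls. The sums were 253.9 to 302.1 at 500 Hz. At 250 Hz (307.8 to 436.8) and 1000 Hz (371.9 to 410.5) they overlapped those at 3000 Hz. The mean log2 signal of AUR1 was higher at 1000 Hz (7.77) than at 3000 Hz (7.65). MCM7, a DNA replication gene, was 0.88 ± 0.17 higher at 3000 Hz than at 500 Hz (limma, SE, adjusted p = 0.00598), and AUR1 had 0.44 ± 0.18 (adjusted p = 0.122). Neither passed over the controls or 2000 Hz. Their part in the result was not tested either. Of 9 mesophyll markers the rubisco activase gene RCA was measured, with 14.1 to 14.3 on all arrays, and none of 7 floral markers was.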

How the data were processed

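The deposited table gives 1 log2 signal per probe set and array. The tools named per the submitters' processing notes are MAS5, RMA and Affymetrix Expression Console 1.1, and it is not stated which made these log2 values. No further scaling was applied (array medians 6.51 to 6.63). Per the labels, biotin-labelled cRNA of total RNA was hybridised. Of 22810 probe sets, 64 Affymetrix controls were set aside.

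Probe sets were matched by locus to the platform's annotation, in which 13513 had 1 gene, 503 several and 8730 none. Without a genome build for the values, no coordinates are given.

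One limma model (version 3.58.1, under R 4.3.3) took in all 18 arrays, using lmFit and a trended eBayes, with 2-sided tests, and limma's F test covered the 5 frequencies. P-values were adjusted by Benjamini-Hochberg over 22746 probe sets, and an adjusted p under 0.05 passed. Errors are standard errors of the fit, or SD where given, n is 3 arrays a group, and that number limits the precision. The fit was tested on simulated data. These gave a probe set the same variance in every group, so they could not test the wider spread of the controls.

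The members, lists and tests were chosen with earlier results of these data known. By the rule for named genes, array values are given for members that passed in any comparison, which were all 35. From the other lists, the rule was up to 3 passing genes by largest absolute change, or else the 2 highest and 2 lowest. For ribosome biogenesis the order by size was not kept. There AT3G05060 (1.03) and NRPA2 (0.91) passed over 2000 Hz with larger differences than NRPA1 (0.87).

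Over all probe sets, same-numbered arrays deviated together no more than others. Their correlations were -0.32 to 0.35 over 45 pairs (median -0.0019, 12 above 0.1). For arrays of different number they were -0.40 to 0.39 over 90 pairs (median 0.0285, 31 above 0.1). The main fit did not pair arrays by number, but this cannot show that they were unpaired. The member average was highest on replicate 1 in the controls and at 250, 500 and 1000 Hz. At 2000 and 3000 Hz it was highest on replicate 2. Alternatives were median centring, quantile normalization, no trend, no shared variance, dim probe sets left out, array weights, a replicate block, the 2 groups alone, the 12 arrays of the controls and 250 to 1000 Hz alone, the 15 sound arrays alone, the 4 shared probe sets added (chosen after the data were seen) and each array left out.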

Additional observations from a re-analysis of the deposited data

Results flagged for a closer look

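Of the 35 ribosomal protein genes, 34 differed among the 5 frequencies in limma's moderated F test over the sound groups, which stood out as a difference between the sound groups. The mean log2 signal of the 24 poly-A spike probe sets, which no comparison of genes uses, was 0.728 higher at 3000 Hz than in the controls and 0.886 higher at 2000 Hz than in the controls, and it drew attention as a shift outside the genes themselves. Between 3000 Hz and 2000 Hz, both in the higher set, the ribosomal protein genes differed by a median of 0.61.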

How the results depend on the processing

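Differences between 3000 Hz and the controls, 2000 Hz or 500 Hz kept their sign for each of the 35 genes under every alternative (0 reversals of 490 values in each of the 3 comparisons). The difference itself cannot change with no trend, no shared variance, dim probe sets left out, the 2 groups alone or the replicate block. Those settings could therefore not reverse a sign. The counts of passing genes moved more. With no shared variance they were 9 against the controls, 18 against 2000 Hz and 1 against 1000 Hz, and with the 2 groups alone 0 against the controls and 33 against 1000 Hz. Against 1000 Hz the count was 23 with the dimmest 33% of probe sets left out and 34 with array weights. With the 4 shared probe sets 1 fell at 500 Hz against the controls. Leaving out 1 array gave 0 to 34 against the controls, 0 to 34 against 2000 Hz, 4 to 15 against 250 Hz, 28 to 34 against 500 Hz, 0 each time against 1000 Hz, 13 to 34 in the F test, and 0 each time for 250, 500, 1000 and 2000 Hz against the controls. Of the genes called against 500 Hz 28 passed whichever array was left out, and 0 of those called against the controls or 2000 Hz did. Over all probe sets, 0.633% to 12.2% were called between 3000 Hz and the controls with 1 control array left out. The median at 2000 Hz against the controls, -0.17, was -0.28 to 0 with 1 array left out, the 0 without control replicate 1. With the replicate block, 23 genes passed against the controls, 32 against 2000 Hz, 25 against 250 Hz, 35 against 500 Hz, 17 against 1000 Hz and 35 in the F test. After median centring 842 of all probe sets were higher and 685 lower at 3000 Hz than in the controls, against 647 and 855 without it, and 26 ribosomal protein genes passed. Each member had 1 unshared probe set, so averaging a locus's probe sets and leaving out shared ones changed nothing. The causes of these changes were not tested.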
